A study of Spirodela polyrhiza and Pistia stratiotes and Colocasia esculenta with 79 samples.

Results

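Among the body regions dissected from the duckweed Spirodela polyrhiza, 90 transcripts were low in the stipe and held a near-even level in the 5 regions Apical, Basal, LowerWall, Node and Tract. They are 90 of the 16332 transcripts in the Spirodela table, or 0.551%. All plants belonged to 1 clone, numbered 9509, and poly-A RNA was sequenced from 7 regions with 4 libraries each, the remaining region being labelled NodeTract. No treatment, age or mutation is named in the labels. A library is a pool of dissected tissue, so fewer cells of a type and less RNA per cell cannot be told apart. Because a single clone was used, the spread between libraries does not include differences between genotypes.

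Spirodela has no ordinary stem and leaves. Its body is a flattened frond with roots beneath, and daughter fronds bud from pockets near the node, where roots, veins and buds meet. The stipe is the short stalk that carries each daughter and joins it to the mother frond until it separates. The regions other than NodeTract and Stipe thus span the blade (Apical and Basal), the wall on the underside and the central attachment tissue.

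The members were chosen from their values, by a score. Expression was in TPM, a unit that corrects for transcript length and scales each library to a common total. For each region the mean of log2(TPM + 1) over its libraries was taken, and the score was the lowest of the 5 region means minus the Stipe mean, so a higher score means a lower Stipe level. A transcript was a member if its score was at least 1, its 5 region means lay within 1 of each other and its mean TPM was at least 10 in each of them. NodeTract played no part in the choice. The level and evenness conditions alone held for 3642 transcripts, called the even transcripts here, of which 92 also passed the score. Of these, Sp9509d001g013860_T001 and Sp9509d009g004490_T001 were left out because Apical and Basal both exceeded LowerWall, Node and Tract by 0.7. They are named after their values were seen. Fewer than 150 transcripts qualified, so the upper limit of 150 members was not reached. The table lists transcripts by identifier alone, so what they encode is not given here and region labels were not checked against marker genes.

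Library totals lay between 999671 and 999911 TPM, which the scaling of TPM sets and which does not show how alike the libraries were. From 12577 to 14915 transcripts reached 1 TPM. Because TPM hides how many reads lie behind a value, no interval for counting error is given. The 10 most abundant transcripts held 27.0% of Tract library 1, against 15.9% to 16.5% of the other Tract libraries. Without that library 97 transcripts qualified, with 87 of the 90 members among them. The labels of Node and Tract give a different protocol text from those of the remaining regions. No pair of Spirodela libraries was identical, the highest Pearson r between libraries being 0.972 across transcripts.

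The rule asked for at least 10 TPM in each of the 5 regions, so low transcripts could not enter the set. Averaged over the 20 libraries of those regions, the median level was 55.8 TPM among members. It was 39.8 TPM among even transcripts and 14.7 TPM among all transcripts. The members' mean TPM over the 5 regions ran from 12.1 to 565, with a median of 57.4. There were 24 members at 10 to 30 TPM, 39 at 30 to 100, 19 at 100 to 300 and 8 over 300. In Stipe the region means ran from 0.946 to 182 TPM with a median of 17.5, so most members were still detected there, and 15 averaged over 50 TPM in Stipe. The ratio of the mean TPM over the 5 regions to the Stipe mean lay between 2.11 and 17.8, with a median of 3.19. Most of the set was therefore reduced in Stipe and not absent from it.

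Scores ran from 1.00 to 3.67 with a median of 1.30, and the set was weighted towards the threshold. A total of 60 members scored under 1.5, 17 scored 1.5 to 2 and 13 scored 2 or more. At the edge, the member of lowest score averaged 51.7 TPM over the 5 regions and 20.6 in Stipe. The first transcript outside scored 0.99 and averaged 66.0 and 27.0 TPM, so the threshold does not mark a gap. Score and abundance were weakly related, with a Spearman rho of 0.108 over the 90 members, given as a description since both are drawn from the same libraries.

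Summed over the set, members held 0.673% to 1.08% of the TPM of the 20 libraries of the 5 regions, with a median of 0.901%. In Stipe they held 0.210%, 0.308%, 0.311% and 0.201% in libraries 1 to 4. In NodeTract they held 0.525%, 0.715%, 0.737% and 0.828%. The Stipe libraries all lay under the lowest library of the 5 regions, as the choice of members requires of their means, while NodeTract overlapped them. The even transcripts as a whole had a median of 42.8 ± 3.10 TPM in Stipe (SD, n = 4) and 39.8 ± 3.38 over the 20 libraries (n = 20), so this class of transcript was not low in Stipe in general.

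**Figure D1:**
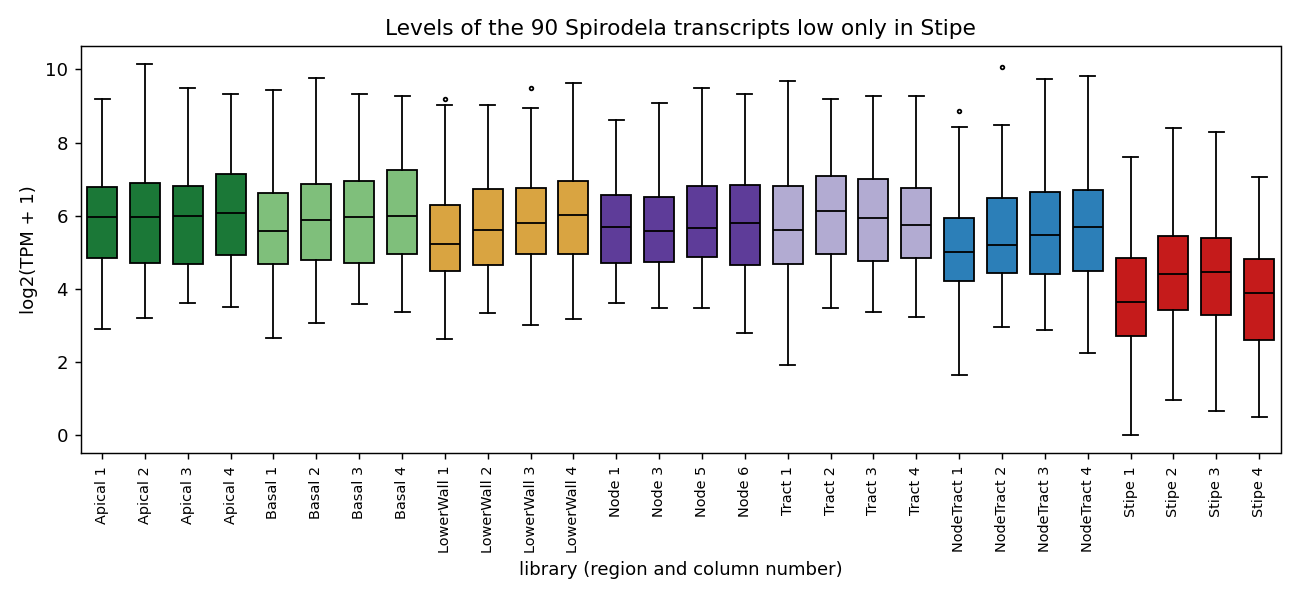
Box plots of log2(TPM + 1) for the 90 members in each of the 28 libraries, coloured by region; the line is the median, the box the quartiles and the whiskers reach 1.5 box lengths. The Stipe boxes stand lowest, with medians of 3.63 to 4.44, and the NodeTract medians of 4.99 to 5.68 lie towards the low end of the remaining libraries.

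The transcript of highest score was Sp9509d005g005590_T001. It stood at 7.12, 6.25, 9.43 and 1.46 TPM in the Stipe libraries. It stood at 109, 83.9, 104 and 75.0 TPM in Apical, and at 57.5, 64.6, 108 and 115 in Basal. The Node libraries ranged more widely, at 152, 90.5, 97.5 and 27.5 TPM, and the lowest of them still exceeded every Stipe library. In LowerWall it averaged 91.9 ± 18.3 TPM and in Tract 107 ± 26.7 (SD, n = 4 each). Its score of 3.67 stood apart from the second, at 2.79, and its 5 region means differed by 0.41 on the log2(TPM + 1) scale.

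The second was Sp9509d006g006490_T001. Its Stipe values were 10.8, 7.74, 13.9 and 9.08 TPM, close together for such low values. The 20 libraries of the 5 regions lay between 60.3 TPM, in Basal library 3, and 153 TPM, in Tract library 3. Tract was its highest region at 132 ± 21.0 TPM and Basal its lowest at 78.2 ± 21.9 (SD, n = 4 each). Stipe thus did not overlap any of these regions. In NodeTract it stood at 54.2, 88.9, 66.6 and 78.4 TPM, a difference of -0.47 from the mean of the 5 regions (SE 0.17, limma adjusted p = 0.0310).

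The most abundant member, Sp9509d010g009440_T001, averaged 565 TPM over the 5 regions. Its Stipe libraries were split, at 54.4, 334, 310 and 30.6 TPM, a mean of 182 ± 162 (SD, n = 4). Libraries 2 and 3 exceeded LowerWall library 1, at 245 TPM, so Stipe and the 5 regions overlapped for this transcript although its score was 1.91. The next in abundance, Sp9509d005g005480_T001, was more uniform in Stipe, at 193, 132, 146 and 99.6 TPM, all under the lowest of the 20 libraries, 233 TPM in a Node library. Its Basal libraries were uneven, at 696, 353, 329 and 373 TPM.

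**Figure D2:**
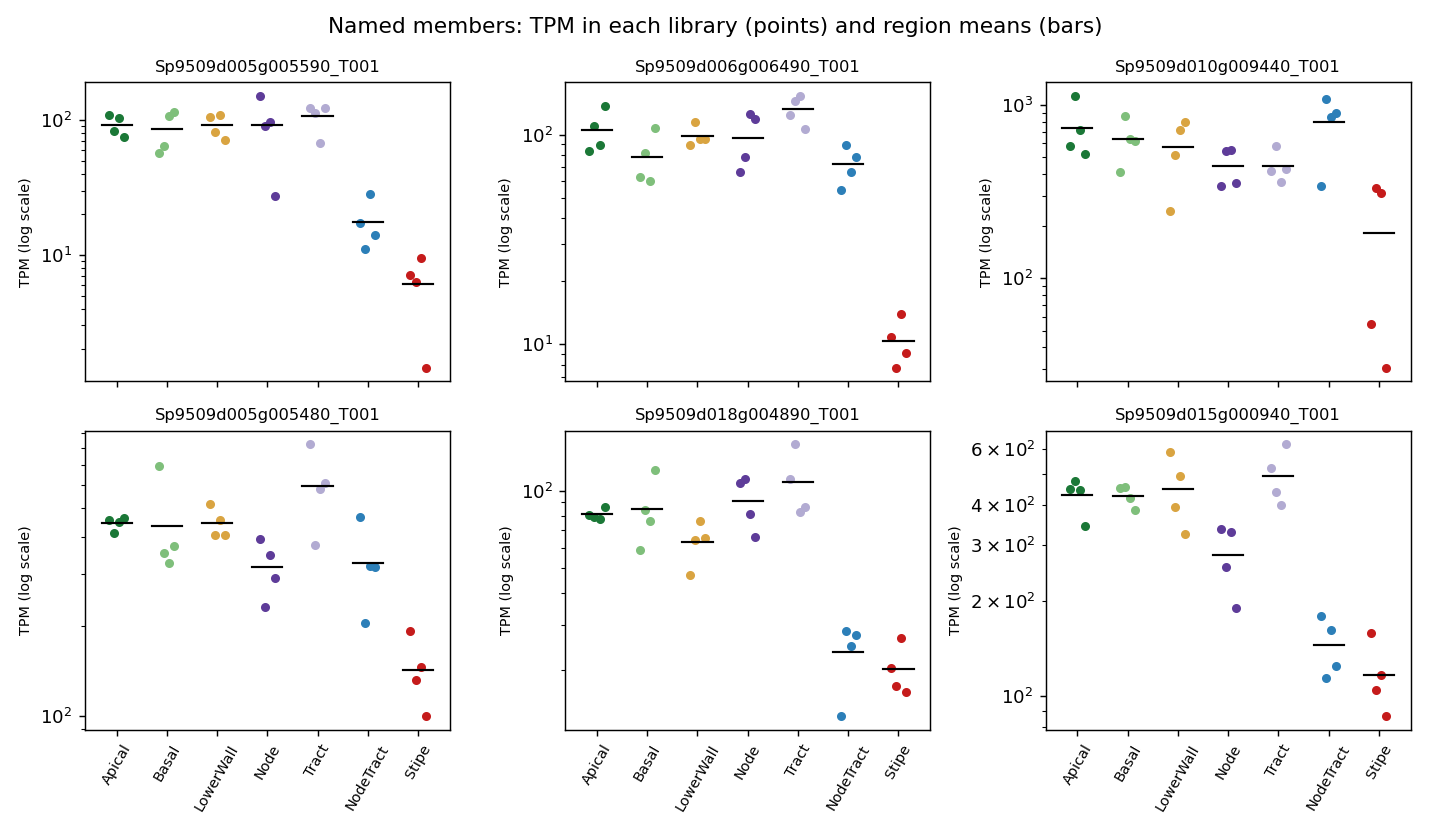
TPM on a log scale for the 6 named members in each library (points, in replicate order within a region) and the region means (bars). Sp9509d005g005590_T001 is low in NodeTract as well as in Stipe, and Sp9509d010g009440_T001 has Stipe libraries at 334 and 310 TPM and others at 54.4 and 30.6 TPM.

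How uniform the reduction was across Stipe libraries was followed for the whole set. For 61 of 90 members all 4 Stipe libraries lay under all 20 libraries of the 5 regions, where 3.66% of the 15802 tested transcripts did so. Taken alone, Stipe library 1 lay under all 20 for 88 members, library 2 for 71, library 3 for 72 and library 4 for 85. Over all tested transcripts these shares were 10.4%, 6.47%, 7.36% and 16.1%. The rule used the Stipe values, so nothing is read from these counts. The lowest of the Stipe values fell in library 4 for 43 members and in library 1 for 38, and the highest in library 2 for 40 and in library 3 for 36. Among all even transcripts the lowest was in library 4 for 48.8% and in library 1 for 26.9%, and the highest in library 2 for 20.5%, in library 3 for 27.4% and in library 1 for 41.4%. The SD of log2(TPM + 1) within Stipe had a median of 0.424 among the members and 0.270 among the even transcripts. It was at least 1 for 12 of 90 members and 34 of 3642 even transcripts. The rule used these Stipe values too, so neither this spread nor the order of the libraries is read as a trait of the members. Leaving out Stipe library 4 left 76 qualifying transcripts with 73 of the 90 among them, and leaving out library 1 left 89 with 75 of the 90.

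**Figure D3:**
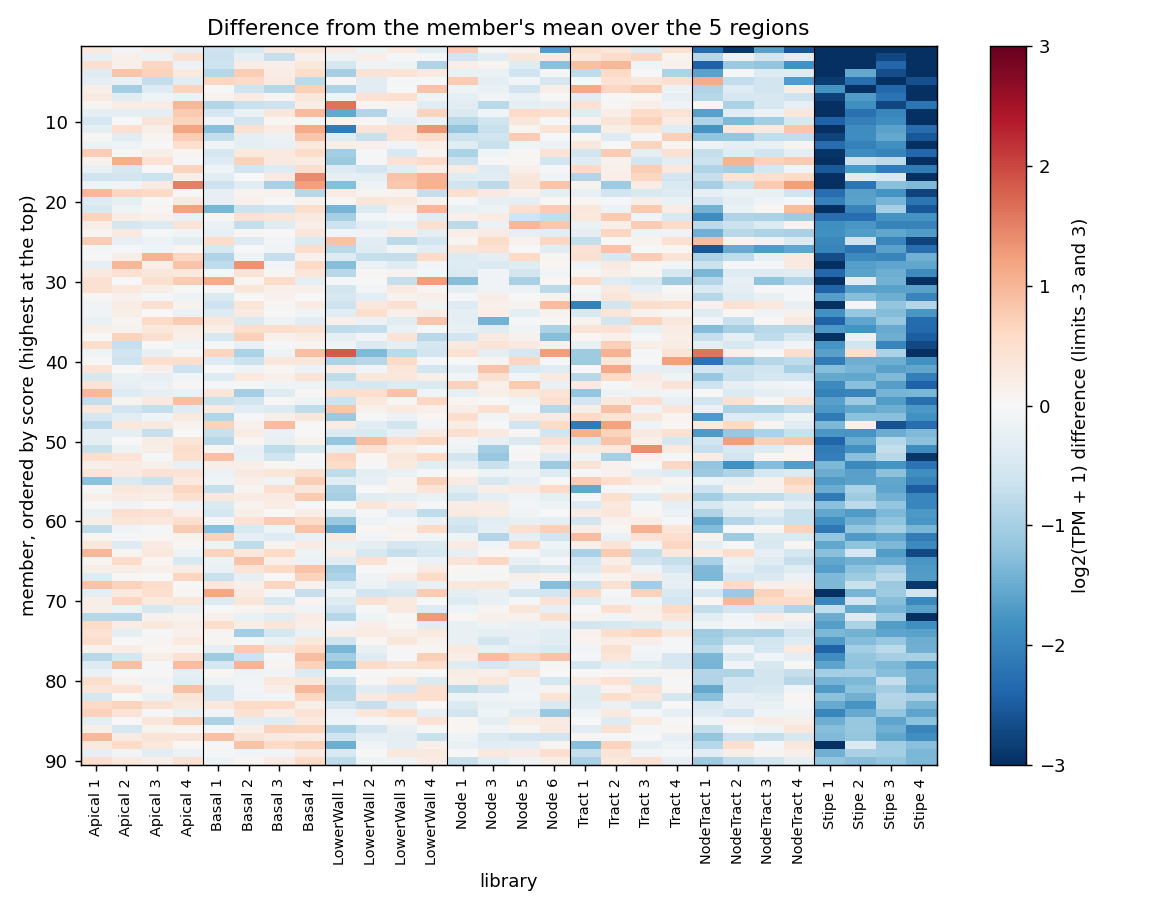
Each row is 1 of the 90 members, from the highest score at the top, and each column 1 of the 28 libraries; colour is log2(TPM + 1) minus the member's mean over Apical, Basal, LowerWall, Node and Tract, with blue for lower. The Stipe columns are blue apart from 2 members above 0 in library 2, and deepest in libraries 1 and 4 (medians of -1.89 and -1.94), and NodeTract library 1 is the bluest of the NodeTract columns (median -0.83).

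Within the 5 regions the members were allowed to differ by up to 1, and they used most of that room. The range of the 5 region means had a median of 0.684. Apical was the highest of them for 31 members, Tract for 25, Basal for 13, Node for 12 and LowerWall for 9. LowerWall was the lowest for 28 members, Node for 23, Basal for 16, Tract for 13 and Apical for 10. The median differences from the mean of the 5 were nonetheless small, from -0.10 in Node to 0.09 in Apical. The evenness depended on the scale of the libraries. With median-of-ratios rescaling, which sets the typical transcript equal between libraries, all 90 still scored above 0 and 66 scored at least 1, but 42 kept the 5 regions within 1. On that scale 57 transcripts qualified, 36 of them among the 90. Node was then the lowest of the 5 for 69 members and Apical the highest for 64. The factors used were 1.25 to 1.38 for the Node libraries and 0.744 to 0.851 for Apical.

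To place the stipe among the regions, the same score and evenness conditions, before the blade exclusion, were applied with each region in turn as the low one against the remaining 5. Stipe gave 92 transcripts, 2.53% of those even in the other regions. Node gave 13 and Tract gave 0, and the blade and wall regions gave few, with 3 for Apical, 2 for Basal and 3 for LowerWall. The mirror condition, at least 1 above the highest other region, was met by 126 transcripts in Stipe and 28 in Node. So transcripts otherwise even across the frond departed from that level in Stipe in both directions, and more were high than low. These counts are a description and the difference between regions was not tested. They were made on the TPM scale alone and were not repeated after rescaling.

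**Figure D4:**
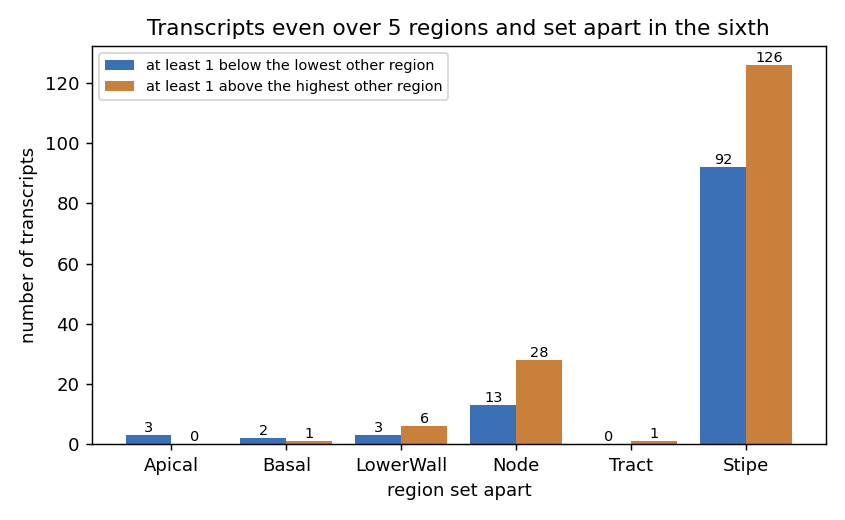
Number of transcripts that were even over 5 regions and at least 1 lower (blue) or at least 1 higher (orange) in the sixth, on the log2(TPM + 1) scale, with each of 6 regions taken as the sixth. Stipe has 92 low and 126 high, and Node follows with 13 and 28.

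NodeTract, the region outside the rule, shows whether the members held their level in a further piece of the frond. The mean of 75 of the 90 was lower there than in the 5 regions, and none was as low as in Stipe. Among even transcripts, 51.4% were lower there than in the 5 regions at a score under 0, 62.4% at 0 to 0.5 and 74.6% at 0.5 to 1. The share over all tested transcripts was not counted. The median difference of NodeTract from the mean of the 5 regions was -0.43 on the log2(TPM + 1) scale, from -2.35 to 0.56, where the median was -0.04 over even transcripts and 0.16 over all 15802 tested. Tested with limma over all transcripts, 35 of 90 members were lower in NodeTract at an adjusted p under 0.05, 1 was higher and 54 were not called. Over all tested transcripts 14.2% were called lower and 27.9% higher, and among the even transcripts 18.7% were called lower. The 5 regions entered the choice of members by being high relative to Stipe, which by itself can place a region outside the rule somewhat lower. With Apical, Basal and LowerWall alone as the comparison, whose labels give the same protocol text as NodeTract, 35 members were lower and 0 higher, against 13.9% lower and 40.2% higher over all tested and 15.2% lower among even transcripts. That 0 stands beside 0 members higher at an unadjusted p under 0.05.

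NodeTract lay below all 5 region means for 49 members and within their range for 37. The shares of all tested transcripts at these positions were not counted. Set on a line from the mean of the 5 regions to the Stipe mean, NodeTract had covered a median of 0.198 of the distance. The quartiles of that position were 0.0608 and 0.454, and its highest value, 0.911, was that of Sp9509d018g004890_T001. No member had a NodeTract mean at or under its Stipe mean, the difference between them running from 0.18 to 2.69 with a median of 1.39. For 59 members the 4 Stipe libraries lay under all 4 NodeTract libraries, where 19.9% of tested transcripts did so, and since the Stipe values chose the members no test is given.

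**Figure D5:**
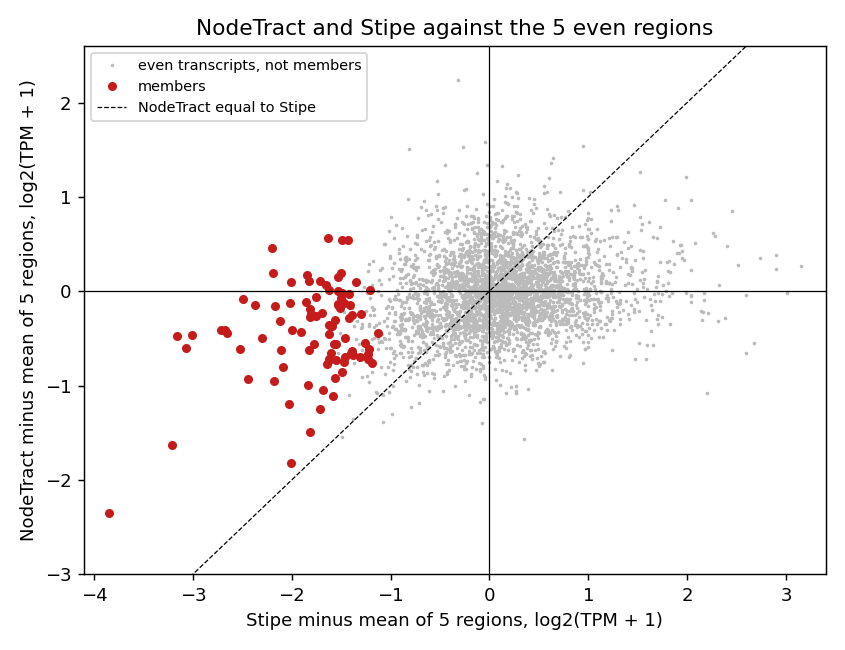
Difference of NodeTract (vertical) and of Stipe (horizontal) from the mean of the 5 regions, on the log2(TPM + 1) scale, for the 90 members (red) and the even transcripts that are not members (grey); the dashed line marks equal values in NodeTract and Stipe. All members lie above the dashed line, and 75 of the 90 lie below 0 on the vertical axis.

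Within NodeTract the members were lowest in library 1. Library 1 also held the lowest member share of TPM within Apical, Basal, LowerWall and Tract, at 0.904%, 0.772%, 0.673% and 0.874%. Within Stipe the lowest share was in library 4, at 0.201%. The even transcripts, too, were lowest in NodeTract library 1, with a median of 33.8 TPM against 38.2 to 40.6 in the other NodeTract libraries. The members stood at a median of -0.83 from the mean of the 5 regions in NodeTract library 1, and at -0.37, -0.36 and -0.22 in libraries 2, 3 and 4. Library 1 lay under all 20 libraries of the 5 regions for 44 members, and the others for 19, 11 and 13. Over all tested transcripts these shares were 7.56%, 4.63%, 2.02% and 2.52%. Without NodeTract library 1 the median member difference of NodeTract from the 5 regions was -0.27, against -0.43 with it. The count of members called lower in NodeTract than the 5 regions stayed between 26 and 36 when any 1 library was left out. Among members, whose scores all reached 1, the Stipe and NodeTract differences were almost unrelated, with a Spearman rho of 0.0786 over 90. Over the even transcripts the median NodeTract difference was lower at higher scores. It was -0.009 at scores under 0, -0.13 at 0 to 0.5, -0.30 at 0.5 to 1 and -0.41 at 1 or more. The shares below 0 were 51.4%, 62.4%, 74.6% and 83.7% in the same order. Both differences share the mean of the 5 regions, and all these values are a description.

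Of the members called lower in NodeTract, 6 had all 4 NodeTract libraries under all 20 of the 5 regions, where 0.69% of tested transcripts did. None had all 4 above all 20, as 0.658% of tested transcripts did. Sp9509d018g004890_T001 stood at 13.3, 28.6, 24.9 and 27.5 TPM in NodeTract, against 20.4, 17.4, 26.7 and 16.5 in Stipe. The lowest of the 20 libraries was at 46.9 TPM, in LowerWall, and the highest at 151 TPM, in Tract, so NodeTract overlapped Stipe and none of the 5 regions. Its NodeTract difference was -1.83 (SE 0.19, limma adjusted p = 1.5e-07). Its low level was thus shared by Stipe and NodeTract.

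Sp9509d015g000940_T001 showed the same layout at a higher level. Its NodeTract libraries were at 179, 114, 162 and 125 TPM and its Stipe libraries at 158, 105, 117 and 86.5. Apical averaged 429 ± 59.0 TPM, Basal 428 ± 32.0, LowerWall 449 ± 115, Node 277 ± 69.5 and Tract 495 ± 97.9 (SD, n = 4 each). The NodeTract difference was -1.49 (SE 0.17, limma adjusted p = 4.3e-07). Sp9509d005g005590_T001, described above, had the largest NodeTract difference of the set, -2.35 (SE 0.33, limma adjusted p = 5.8e-06), at 17.1, 11.1, 28.3 and 14.1 TPM. Its highest NodeTract library just exceeded the Node library at 27.5 TPM. For it, too, NodeTract lay nearer to Stipe than to the 5 regions.

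Apart from Sp9509d006g006490_T001, called lower as given above, the other named members were not called in NodeTract or were called higher. The most abundant, Sp9509d010g009440_T001, stood at 341, 1074, 854 and 903 TPM there, a difference of 0.46 (SE 0.43, limma adjusted p = 0.412) from the 5 regions. Sp9509d005g005480_T001 stood at 467, 206, 321 and 318 TPM, a difference of -0.45 (SE 0.20, limma adjusted p = 0.0781) that did not pass the threshold. Sp9509d005g009030_T001 was the member called higher, and is named for that after its values were seen. It had 32.6, 63.5, 46.8 and 46.3 TPM in NodeTract and 7.29, 21.1, 12.4 and 7.44 in Stipe, with a NodeTract difference of 0.54 (SE 0.21, limma adjusted p = 0.0419). The call was lost in 11 of 24 fits that each left out 1 library, with differences of 0.39 to 0.70 over those fits, and after rescaling, where its limma adjusted p was 0.0902.

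The regions labelled Node and Tract were then set against NodeTract separately. NodeTract was under both of their means for 59 members, between them for 17 and above both for 14. Over even transcripts the median NodeTract difference was -0.19 from Node and -0.10 from Tract, and shares for these positions were not counted. Against Tract, 30 members were lower and 1 higher in NodeTract, with a median difference of -0.48, where 16.5% of tested transcripts and 21.4% of even transcripts were called lower, and 14.5% and 8.46% higher. Against Node, 20 members were lower and 0 higher by limma, where 4.43% of tested transcripts were called higher, with 28 lower and 1 higher at an unadjusted p under 0.05. Here the background was of like size, at 20.5% of tested and 20.9% of even transcripts called lower, so the share of members was near it. The comparison with Node depended on the scale: rescaling left 6 members lower and 1 higher and moved the median member difference from -0.34 to -0.04, as it moved that of all tested transcripts from -0.24 to 0.03. It also depended on single libraries, with 8 members lower and a median member difference of -0.19 without NodeTract library 1 and 13 members lower without the Node column numbered 1 or that numbered 3. In all, 17 members were called lower in NodeTract than both Node and Tract, and 57 lower than neither, where 9.8% of tested and 13.7% of even transcripts were called lower than both. Node and Tract carry another protocol text than NodeTract, so protocol and region cannot be told apart in these comparisons. Both also entered the choice of members by being high relative to Stipe, which by itself can place NodeTract somewhat lower than either.

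Abundance did not sort the NodeTract calls cleanly. Among members at 10 to 30 TPM 6 of 24 were called lower than the 5 regions, at 30 to 100 TPM 19 of 39 and at 100 to 300 TPM 9 of 19. Of the 8 members over 300 TPM the call was made for Sp9509d015g000940_T001 alone. The median NodeTract difference was -0.27, -0.61, -0.45 and -0.22 in these classes in order. Differences between the classes were not tested. The shares called among all tested transcripts of each class were not counted, so these counts are not read as particular to the members.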

How the data were processed

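The authors deposited TPM values per transcript for each Spirodela library. Salmon 1.10.0 is named per the submitters' processing notes, and the transcript set behind it is not given in the sources used here. Every column was used. The Node columns are numbered 1, 3, 5 and 6 and were taken as 4 replicates with no number of their own. The labels call libraries biological replicates without saying that cultures were separate, so p-values measure the spread between these samples, which may be technical. The members, lists and comparisons were chosen with earlier results of these data known.

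Tests used limma 3.58.1 in R 4.3.3 on log2(TPM + 1) with a mean trend, fitted to all 28 Spirodela libraries, for the 15802 of 16332 transcripts with at least 1 TPM in 4 or more libraries. Calls are at a Benjamini-Hochberg adjusted p under 0.05 over all tested transcripts. Differences on this scale understate changes of low transcripts. The fit was tested on simulated data. Stipe values chose the members and are described without a test; NodeTract was tested. Named transcripts are the 2 of highest score, the 2 most abundant, and the 2 with the largest NodeTract difference among those called with no overlap between libraries. Gene lists planned by name were not counted, since identifiers carry no names. Alternatives were another pseudocount, no filter, rescaling, fewer regions, a replicate block, other membership settings and leaving out each library.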

Additional observations from a re-analysis of the deposited data

Results flagged for a closer look

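In the Basal libraries, Sp9509d005g005480_T001 stood at 696 TPM in library 1 against 329 to 373 TPM in the other libraries, a gap that is large for the range of 4 values. The 10 most abundant transcripts held 27.0% of Tract library 1 against 15.9% to 16.5% of the other Tract libraries. These were 2 of the 77 groups of 4 libraries examined, and chance flags about 1 in 20 groups.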

How the results depend on the processing

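Against the 90 members, 57 transcripts qualified after median-of-ratios rescaling, 323 with Apical, Basal and LowerWall as the only other regions, 55 with NodeTract as a sixth region, 96 with a pseudocount of 0.1 and 84 with medians over replicates. Of the 90, these kept 36, 84, 55, 89 and 69. Leaving out 1 library gave 76 to 110, with 73 to 89 of the 90 kept. Members called lower in NodeTract than the 5 regions numbered 39 after rescaling and 26 to 36 with a library left out, and members called higher 0 and 0 to 2. Lower calls over all tested transcripts were 2240 of 15802 in the main fit and 2964 of 15791 after rescaling. The count of 26 members came without NodeTract library 1, where 1748 of 15769 transcripts were called lower. Against Node, 6 members were lower and 1 higher after rescaling, and 8 to 20 lower with a library left out. Against Tract, 24 to 30 were lower and 0 to 1 higher with a library left out. Against Apical, Basal and LowerWall, 52 were lower after rescaling, and 27 to 37 were lower and 0 to 2 higher with a library left out. Rescaling changed the split over all tested transcripts against Node from 3237 lower and 700 higher to 1425 and 1294, and against Apical, Basal and LowerWall from 2199 and 6355 to 3629 and 4840. The cause was not tested. TPM holds no depth, so what depth limits is unknown.

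With the replicate number as a replicate block and Node left out, 41 members were lower and 2 higher in NodeTract than the remaining regions, 34 were lower than Tract, and 42 were lower and 2 higher than Apical, Basal and LowerWall. An unblocked fit that also left out Node, added after seeing the data, gave 34 lower and 0 higher, 29 lower, and 34 lower and 0 higher in the same order. Over all transcripts the first comparison had 6645 calls with Node and no block, 7684 with Node left out, and 8552 with Node left out and the block. The lower calls among them numbered 2240, 2241 and 2648. With Node left out, the block moved lower calls from 2469 to 2977 against Tract. It moved them from 2154 to 2475 against Apical, Basal and LowerWall. To compare numbers, each transcript's region mean was first subtracted from its log2(TPM + 1) values. Same-numbered libraries of NodeTract and another region then correlated at -0.0749 to 0.612 over 20 pairs. For 16 of these pairs the NodeTract library correlated best with its own number among the 4 of that region. Without pairing, each of the 4 numbers would be as likely as another to be the best. All 4 pairs exceeded 0.1, a limit set for this work, for Basal and for LowerWall, but not for Apical, Tract or Stipe. The number was therefore not taken to pair libraries, and the main fits and their p-values leave out any pairing by number. No block fit could be made against Node, whose columns carry no matching numbers.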

Other observations

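Members were spread over the numbering of the transcript identifiers. All 20 identifier prefixes held at least 1 member, from 0.0899% to 1.09% of the transcripts under a prefix. Identifier numbers advance in steps of 10, and 2 pairs of members were 1 step apart and 7 pairs were up to 5 steps apart. Genome positions were not used here, so these pairs are described by number only.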
